A study of Homo sapiens with 3 samples.

Results

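The genes described here are the NRF2 antioxidant genes of 22RV1 cells, namely NFE2L2, which encodes NRF2, its inhibitor KEAP1, and the target genes GCLC, GCLM, TXNRD1, SRXN1, PGD, NQO1 and HMOX1. They were chosen by name, as every gene probe on the array that carries one of these 9 gene names, and each gene had 1 probe, so the genes make up 9 of 43317 gene names and 9 of 58201 probes. 22RV1 is a human prostate cancer cell line that makes SPINK1, a secreted trypsin inhibitor. The cells carried 1 of 3 lentiviral short hairpin RNAs against SPINK1 (22RV1-shSPINK1, hairpins 1, 2 and 3) or a scrambled hairpin (22RV1-shSCRM), and all of them were kept under puromycin, so selection and a viral insert were common to both arms. On each of 3 two-color arrays, RNA of cells with 1 hairpin, in Cy5, was set against RNA of the 22RV1-shSCRM cells, in Cy3. The study compared the pairs to learn which transcripts depend on SPINK1.

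NRF2 is a transcription factor that KEAP1 holds in the cytoplasm and hands to a ubiquitin ligase. Oxidants and electrophiles modify cysteines of KEAP1, and NRF2 then escapes degradation, enters the nucleus, pairs with small MAF proteins and binds antioxidant response elements. Its targets make glutathione, reduce thioredoxin, supply NADPH, break down heme and detoxify quinones, and KEAP1 or NRF2 mutations keep the program switched on in a number of cancers. Because NRF2 is controlled mainly as a protein, its targets are commonly read as the transcriptional output of the pathway.

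Short stretches of promoter show where matches to the core of the element lie in these genes. The element's core, TGACNNNGC, was searched on both strands in the RefSeq promoters of GRCh38.p14, each running from 250 bases before to 50 bases after a start site. In the windows below, written 5′ to 3′ on the strand of the gene, capitals mark the core or its reverse complement.
GCLM, chr1:93909445-93909474, minus strand: tacgatttctGCTTAGTCAttgtcttccag
KEAP1, chr19:10502783-10502812, minus strand: gcccggctctGCTTAGTCAtggtgacctgc
KEAP1, chr19:10502806-10502835, minus strand: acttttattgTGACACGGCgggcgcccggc
TXNRD1, chr12:104286920-104286949, plus strand: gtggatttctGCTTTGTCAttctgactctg
PGD, chr1:10398853-10398882, plus strand: cctcgccgggGCAATGTCAtctaggtgctc
The GCLM core began 34 bases before the start site, and the KEAP1 cores began 54 and 31 bases before it. One further pair of matches lay in the other TXNRD1 promoter. Of the 8 genes with a promoter listed, 4 held the core, against 13.3% of all 35116 promoters and 16.1% of 27305 genes. NFE2L2, NQO1, GCLC and SRXN1 held none of these letters in the 300 bases, and no HMOX1 promoter was listed. A match is a stretch of letters and was not read as a bound site.

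The probes themselves, of 60 bases, decide what could be measured. The probes for NFE2L2, TXNRD1 and PGD are shown because they mark 3 different outcomes, a signal that did not leave the background, a dim signal that moved in opposite directions between hairpins, and a bright one.
NFE2L2, hg19 chr2:178095693-178095752, minus strand: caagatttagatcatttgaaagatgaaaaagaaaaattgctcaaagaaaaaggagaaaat
TXNRD1, hg19 chr12:104732949-104733008, plus strand: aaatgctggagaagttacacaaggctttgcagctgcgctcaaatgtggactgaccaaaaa
PGD, hg19 chr1:10478911-10478970, plus strand: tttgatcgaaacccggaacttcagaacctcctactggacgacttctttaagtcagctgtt
G and C made up 15 of the 60 bases of the NFE2L2 probe and 27 of those of the TXNRD1 and PGD probes. The other probes lay, in hg19 as the array's annotation gives it, at chr19:10597262-10597321 for KEAP1, chr16:69744274-69744333 for NQO1, chr22:35790122-35790181 for HMOX1, chr1:94352810-94352869 for GCLM, chr6:53362197-53362256 for GCLC and chr20:627563-627622 for SRXN1. Exon and coding positions were not given in the sources used here.

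Silencing was checked first. SPINK1 had a log2 ratio of shSPINK1 over shSCRM of -3.71, -3.65 and -3.89 with hairpins 1, 2 and 3, and the mean was -3.75 ± 0.12 (SD, n = 3; adjusted p = 5.92e-07, limma). All 12 of the prostate and 22RV1 markers were measurable. Of markers of other cell types, 3 of 6 for fibroblasts, 3 of 4 on the array for leukocytes, 2 of 4 for endothelium and 4 of 6 for neuroendocrine cells were measurable, 1 of them called (ENO2, mean log2 ratio -0.27), while COL1A2, COL3A1, CD3E, PECAM1, KDR, NCAM1 and INSM1 were well above background on no array and PDGFRB on 1. The measurable markers of other cell types had a mean Cy3 brightness from 40.7 for PTPRC to 589 for ENO2. The fibroblast markers LUM and DCN were at 468 and 187. All 3 arrays carried shSPINK1 RNA in Cy5, so what a hairpin did to a gene and what the dyes did to it cannot be told apart. Before normalization, Cy5 was dimmer than Cy3 for 97.9% to 99.4% of the 17059 genes tested, and for all 8 measurable NRF2 genes on every array, so every ratio below is relative to the loess curve of its array. Nothing says that the RNA came from separate cultures of 22RV1-shSCRM cells, and the p-values measure the spread between these 3 arrays only. No allele or mutation of KEAP1 or NFE2L2 in 22RV1 cells is given in the labels.

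None of the 8 measurable NRF2 genes rose or fell past an adjusted p of 0.05 by limma across the 3 hairpins. Over all 17059 genes, 8.72% were called lower and 4.77% were called higher at that threshold. At an unadjusted p under 0.05, 1 of the 8 passed, SRXN1, against 29.8% of all genes. When each gene was tested with its own variance alone, in place of limma's shared one, 0 of 8 passed before adjustment, against 17.7% of all genes. After adjustment that test called 0 of all 17059 genes, SPINK1 included (adjusted p = 0.137), so its adjusted count of 0 carries no information on the NRF2 genes. When each array was centred on its median in place of loess, 6 of the 8 were called lower, but so were 10341 of all genes, whose median was then -0.23. The means ran from -0.19 for SRXN1 to 0.15 for GCLM on the log2 scale, and their median was 0.0088, against -0.01 over all genes. Of the 8 genes, 1 was lower on all 3 arrays, 0 were higher on all 3 and 7 changed sign between arrays, against 29%, 21.2% and 49.7% of all genes. For each of the 8 genes the 95% interval of the mean lay within 0.33 of 0 on the log2 scale, from a fold of 0.796 at the lower end for PGD to 1.24 at the upper end for GCLM. These are intervals of ratios computed with an offset of 50, which draws dim probes towards 0, so they do not bound the fold of a dim gene such as NQO1, and no interval shows that there was no change.

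The regulators came first, NFE2L2 with a signal near background and KEAP1 with a bright one. NFE2L2 had a Cy5 brightness of 21.9, 14 and 16.1 on the arrays of hairpins 1, 2 and 3 over a local background of 15 to 16, and a Cy3 brightness of 33.4, 25.1 and 27.8 over 19 to 20. It was not well above background in either channel on any array, so no fold is given and NFE2L2 mRNA could not be compared. The deposited log2 table nevertheless lists NFE2L2 at 0.90, -0.27 and -0.31, where the scanner software's log2 ratios of this probe were 0.90, 0 and 0. How the table came to its values for hairpins 2 and 3 was not tested. This measures the NFE2L2 probe only and says nothing of the NRF2 protein.

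KEAP1, the adaptor that presents NRF2 for ubiquitination, was bright and had log2 ratios of -0.18, 0.12 and -0.01. The hairpins pointed different ways, and the mean was -0.02 ± 0.15 (SD, n = 3) with an adjusted p of 0.858 by limma. KEAP1 was printed in 10 spots on each array, which show how well a single array measured it. With hairpin 1 the spots ran from -0.30 to -0.09, with a median of -0.18. With hairpin 2 the 9 spots that were not outliers ran from 0.08 to 0.16, with a median of 0.11. With hairpin 3 they ran from -0.05 to 0.08, with a median of -0.03. The spots of hairpin 1 therefore lay below those of both other hairpins without overlap, while the spots of hairpins 2 and 3 overlapped.

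HMOX1, heme oxygenase 1, opens the heme ring and is among the most inducible NRF2 targets. It had log2 ratios of 0.01, -0.14 and 0.23, a mean of 0.03 ± 0.18 (SD, n = 3) with an adjusted p of 0.805 by limma. Its 10 spots ran from -0.13 to 0.11 with hairpin 1, from -0.22 to -0.07 with hairpin 2 and from 0.13 to 0.29 with hairpin 3. The spots of hairpin 3 lay above those of both other hairpins without overlap, and those of hairpins 1 and 2 overlapped. The within-array SD of the 10 spots was 0.0778, 0.0480 and 0.0519 for HMOX1, and 0.0547, 0.0336 and 0.0463 for KEAP1, near the median of 0.0532 to 0.056 for the 281 probes printed 10 times. Among those 281 probes, the spots did not overlap between hairpins 1 and 2 for 37.4%, between 1 and 3 for 32%, between 2 and 3 for 25.6% and in all 3 pairs for 4.27%. Spots of 1 array share their RNA and labelling, so the spots of KEAP1 and HMOX1 describe the precision of an array and not of a hairpin, and a difference between hairpins in growth, labelling or hybridization of that RNA was not tested.

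**Figure D1:**
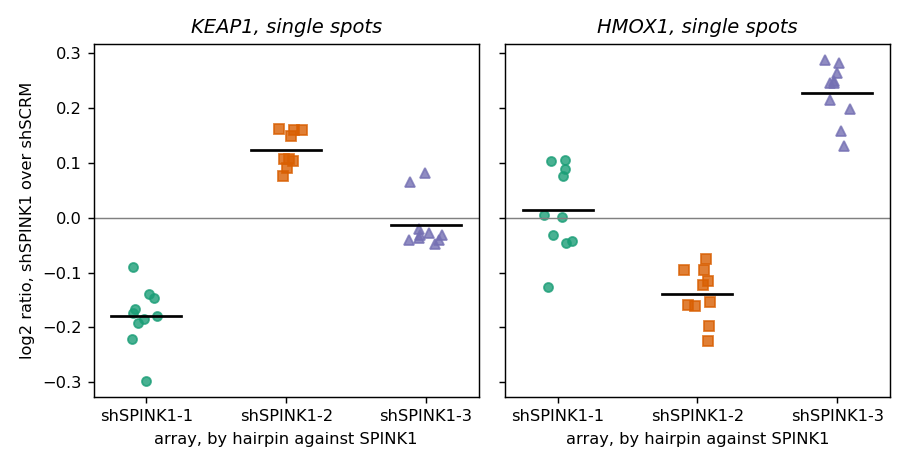
Log2 ratio of shSPINK1 over shSCRM in single spots (vertical axis) of the KEAP1 and HMOX1 probes, by hairpin, where each point is 1 spot and each line the mean of an array. KEAP1 spots of shSPINK1-1 lie below the others, from -0.30 to -0.09, and HMOX1 spots of shSPINK1-3 lie above the others, from 0.13 to 0.29.

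Glutamate-cysteine ligase sets the rate of glutathione synthesis, with GCLC as the catalytic and GCLM as the modifier subunit. GCLC had log2 ratios of 0.15, -0.19 and 0.24, a mean of 0.06 ± 0.23 (SD, n = 3) with an adjusted p of 0.660 by limma. GCLM had log2 ratios of -0.01, 0.15 and 0.30, a mean of 0.15 ± 0.16 (SD, n = 3) with an adjusted p of 0.194. Without the array of hairpin 1, its mean was 0.23 with an adjusted p of 0.0339 by limma, when 18.6% of all genes were called. GCLM was the highest of the 8 NRF2 genes by mean, at 1.11-fold with a 95% interval of 0.992 to 1.24. Hairpin 3 gave the highest ratio of both subunits, and on that array the GCLM ratio was above that of 96.1% of genes. With hairpin 2, GCLC was below 0 and GCLM above it, each read from 1 spot.

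The GCLM probe is not unique in sequence, which matters for reading that value. In all, 7 other probes on the array shared a run of 16 or more bases with it, and all 7 were well above background. Of these, 6 were above 0 on all 3 arrays and, like GCLM, lowest with hairpin 1 and highest with hairpin 3, an order that 17.9% of kept probes had, while 1 was below 0 on all 3 arrays. These probes were looked up after the GCLM value was seen, and the part of other transcripts in the GCLM signal was not tested.

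TXNRD1 and SRXN1 keep thiol proteins reduced, TXNRD1 by passing electrons from NADPH to thioredoxin and SRXN1, sulfiredoxin, by restoring overoxidized peroxiredoxins. TXNRD1 had log2 ratios of 0.23, -0.21 and -0.06, a mean of -0.02 ± 0.23 (SD, n = 3) with an adjusted p of 0.925 by limma. It was a dim probe, at a Cy5 brightness of 75.6, 46.6 and 56.6 over a background near 15, and its highest and lowest ratio came from hairpins 1 and 2. SRXN1 had log2 ratios of -0.05, -0.29 and -0.21, a mean of -0.19 ± 0.12 (SD, n = 3), or 0.879-fold with a 95% interval of 0.797 to 0.970. After loess normalization it was the only one of the 8 genes on the same side of 0 on all 3 arrays. Its adjusted p was 0.0852 at an unadjusted p of 0.0169 by limma. By the scanner software's log ratios SRXN1 was at 0.03, -0.25 and -0.14, while GCLM and NQO1 were above 0 on all 3 arrays. Without the array of hairpin 1, the SRXN1 mean was -0.25 with an adjusted p of 0.0182 by limma, when 18.6% of all genes were called.

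By its values on the 3 arrays, SRXN1 was most like MAP2K3, SNORD4B and PHB, whose log2 ratios differed from it by a root mean square of 0.00888, 0.0106 and 0.0119. In all, 156 genes lay within 0.05 of SRXN1 by this measure, so likeness over 3 arrays singles out no gene.

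PGD, 6-phosphogluconate dehydrogenase, makes NADPH in the pentose phosphate pathway. It had log2 ratios of -0.29, 0.08 and -0.24, a mean of -0.15 ± 0.20 (SD, n = 3) with an adjusted p of 0.242 by limma. Hairpins 1 and 3 lay well below 0 and hairpin 2 slightly above it, in a probe with a Cy3 brightness of 622 to 675. With hairpin 1, 6.51% of genes had a lower ratio than PGD.

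NQO1, which reduces quinones in a single step that yields no radical, had log2 ratios of 0.17, -0.0040 and 5.3e-05. The mean was 0.06 ± 0.10 (SD, n = 3) with an adjusted p of 0.554 by limma, and the brightness in Cy5 was only 39.1, 25.2 and 25.9 over a background of 13 to 15. Such a dim probe is pulled towards 0 by the offset added before the log. The scanner software's own log ratios, made without this offset, were 0.63, 0.09 and 0.12 for NQO1, with hairpin 1 again the highest. NQO1 lay in the second of 10 brightness groups among the genes tested, and its values carry less information than those of GCLC, which lay in the ninth.

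The spread between hairpins of the loess-normalized ratios was wide for most of these genes. The SD over the 3 arrays was 0.23 for GCLC and for TXNRD1, 0.20 for PGD and 0.18 for HMOX1, against a median of 0.0863 over all genes. It exceeded that of 95.1% of genes for GCLC, 94.9% for TXNRD1, 92.1% for PGD and 90.0% for HMOX1, and of 59.6% to 84.3% for NQO1, SRXN1, KEAP1 and GCLM. With the scanner software's log ratios the same comparison gave 91.0% for TXNRD1, 82.7% for HMOX1, 70.3% for GCLC and 68.4% for PGD, 80.6% for NQO1, 54.8% for KEAP1, 52.8% for GCLM and 42.5% for SRXN1. The position was thus lower for 7 of the 8 genes and higher for NQO1. The excess depended on the processing, with KEAP1 and GCLM then near the middle of all genes and SRXN1 below it. Hairpin 2 gave the lowest ratio for 5 of the 8, namely NQO1, HMOX1, GCLC, TXNRD1 and SRXN1, hairpin 1 for KEAP1, GCLM and PGD, and hairpin 3 for none. Over all genes the lowest ratio came from hairpin 1, 2 and 3 for 37.5%, 34.1% and 28.4%. The highest ratio came from hairpin 1 for 3 of the 8, from hairpin 2 for 2 and from hairpin 3 for 3, against 35.7%, 31.5% and 32.8% of all genes. With hairpin 2, the targets GCLM and PGD were above 0, GCLC, TXNRD1, SRXN1 and HMOX1 were below it, and NQO1 was at -0.0040.

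The wider pathway was read from 87 gene names in 7 lists by role, the 9 NRF2 genes included. Selenoprotein P was listed both as SELENOP and as SEPP1, and 85 of the names were on the array. Of these, 73 were measurable, and 12 were called lower and 9 higher at an adjusted p under 0.05 by limma, against 8.72% and 4.77% of all genes. The median of the 73 means was -0.02, against -0.01 over all genes. With the scanner software's log ratios none of the 73 was called in either direction, but only 3 of all 17059 genes were called then, and with each gene's own variance alone 0 of all genes were called. Without the array of hairpin 3 the counts were 4 lower and 2 higher, with 2.74% of all genes called, and without that of hairpin 2 they were 7 and 5, with 6.3% called. Of the 9 called higher, 5 kept their sign under 5 other scalings, and with median centring, which shifted the median of all genes to -0.23, NFE2L1, TXNIP, BLVRA and SOD2 were just below 0 but above that median. Of the 12 called lower, 11 kept their sign, and TXNRD2 was at 0.05 in the deposited table.

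Among 12 measurable NRF2 regulators, 1 rose and 1 fell. NFE2L1, a relative of NRF2 that controls proteasome genes, had log2 ratios of 0.18, 0.40 and 0.29 with an adjusted p of 0.0214, and -0.06 with median centring. NFE2L3, another relative, had log2 ratios of -0.26, -0.37 and -0.22 with an adjusted p of 0.0184. MAFK, a partner of NRF2 on DNA, was the next lowest, with a mean of -0.21 and an adjusted p of 0.0557, and GSK3B, a kinase that marks NRF2 for degradation, was the next highest, at 0.02.

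In the glutathione list, 1 of 15 measurable genes rose and 2 fell. SLC7A11, the cystine importer that feeds glutathione synthesis, had log2 ratios of 0.59, 0.72 and 0.31. The mean was 0.54 with an adjusted p of 0.00935 by limma. The SE of that mean, 0.08, comes from limma's shared variance and is not the SD over the 3 arrays. SLC7A11 stayed above 0 under each of the 5 scalings, from 0.19 with median centring to 0.61, and was the highest of the 73 genes. GSTA4, which conjugates the lipid aldehyde hydroxynonenal to glutathione, fell with a mean of -0.31 (adjusted p of 0.0136), while its other probe had -0.08. MGST1, a membrane-bound glutathione transferase, fell with a mean of -0.31 (adjusted p of 0.0195). GSR, glutathione reductase, was the second highest, at 0.15 with an adjusted p of 0.109, and GCLM was close behind it.

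In the thioredoxin list, 2 of 6 rose and 0 fell. At an unadjusted p under 0.05 by limma, 4 of 6 passed, against 29.8% of all genes, and SRXN1 among them was lower. PRDX1, a peroxidase that uses thioredoxin, had log2 ratios of 0.58, 0.26 and 0.26 with an adjusted p of 0.0226, but its other probe had a mean of 0.01. TXNIP, which binds and inhibits thioredoxin, had log2 ratios of 0.12, 0.56 and 0.28 with an adjusted p of 0.0457, and -0.0080 with median centring. SRXN1 and TXNRD1 were the 2 lowest of this list.

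Among the 7 NADPH genes, 1 fell and 0 rose. IDH1, the cytosolic isocitrate dehydrogenase, had log2 ratios of -0.41, -0.53 and -0.19 with an adjusted p of 0.0185. TKT, transketolase, had a mean of -0.24 with an adjusted p of 0.0837, and PGD came after it. ME1, malic enzyme, was the highest, at 0.05.

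The heme and iron list held 8 measurable genes, of which 2 fell and 1 rose. FTL, the light chain of the iron store ferritin, had log2 ratios of -0.53, -0.50 and -0.41 with an adjusted p of 0.00614, and its other 2 probes had means of -0.40 and -0.29. FTH1, the heavy chain, had a mean of 0.23 with an adjusted p of 0.0732, so the ferritin chains lay on opposite sides of 0, although FTH1 was at 0.01 by the scanner software. SLC48A1, a heme transporter, fell with a mean of -0.33 (adjusted p of 0.0153), while its other probe had -0.03. BLVRA, which turns the biliverdin made by HMOX1 into bilirubin, had a mean of 0.31 with an adjusted p of 0.0305, and -0.01 with median centring. Both ferritin chains have processed pseudogenes, so the part of near-identical copies in the FTL and FTH1 signal is uncertain.

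Of 10 measurable quinone and carbonyl genes, 2 fell and 1 rose. UGT1A6, a glucuronosyltransferase, had log2 ratios of 0.74, 0.28 and 0.48 with an adjusted p of 0.0147, and transcripts of this locus share exons, so the member that changed is uncertain. NQO1 was the second highest of the list. AKR1C3, an aldo-keto reductase that also makes androgens, fell with a mean of -0.29 (adjusted p of 0.016) and has close paralogs. PTGR1, which reduces prostaglandins and alkenals, fell with a mean of -0.22 (adjusted p of 0.0493), while its other probe had -0.03. AKR1B1, AKR1B10, ALDH3A1, ADH7 and OSGIN1 were too dim to test, and GSTP1, ABCC1, ABCC3, ABCC4, BACH2 and GPX3 of the other lists were too.

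The remaining antioxidant enzymes, 15 measurable genes, held 3 that rose and 4 that fell. SOD1, the cytosolic superoxide dismutase, had log2 ratios of 0.50, 0.51 and 0.56 with an adjusted p of 0.00614. It varied little between hairpins and stayed above 0 under each scaling, at 0.21 to 0.51. SOD3, the extracellular form, had a mean of 0.35 (adjusted p of 0.0149), and SOD2, the mitochondrial form, had 0.26 (adjusted p of 0.0308), or -0.08 with median centring. SEPP1, selenoprotein P, had log2 ratios of -0.23, -0.69 and -0.47 with an adjusted p of 0.0169, and its other probe had a mean of -0.33. PRDX3, the mitochondrial peroxiredoxin, had log2 ratios of -0.43, -0.38 and -0.32 with an adjusted p of 0.00798. MSRA, a methionine sulfoxide reductase, fell with a mean of -0.22 (adjusted p of 0.0300), and TXNRD2, the mitochondrial thioredoxin reductase, had a mean of -0.23 (adjusted p of 0.0335), while its other probe had 0.09.

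List medians ran from -0.13 for NADPH supply to 0.13 for the thioredoxin list. With the scanner software's log ratios the medians of these lists were -0.12 and 0.0038, so the higher position of the thioredoxin list was lost. Beyond 0.5 on the log2 scale, 3 of the 73 genes were higher, SLC7A11, SOD1 and UGT1A6, and 0 were lower, against 0.334% and 0.393% of all genes.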

How the data were processed

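Total RNA of 3 shSPINK1 lines and of shSCRM cells, tailed with poly(A) before labelling, was hybridized on the 3 arrays of a single slide. The authors deposited scanner intensity values of both dyes and of the background, with the log10 of the Cy5 to Cy3 ratio as corrected by Agilent Feature Extraction 11.5.1.1, and a table of log2 values per gene name. That table agreed within 0.02 with the software's log2 ratio for 80.4% of values of tested genes. The methods state Lowess normalization and Benjamini-Hochberg adjustment.

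Intensities were processed in R 4.3.3 with limma 3.58.1 and data.table (version 1.17.8). Background was corrected by normexp with an offset of 50, outlier spots (0.203%) were set aside, each array was loess-normalized, and replicate spots were averaged per probe. Probes stayed in when every array had them well above background in the same dye, Cy5 or Cy3. The brightest kept probe stood for a gene, and the mean of 17059 genes was tested against 0 with lmFit and eBayes. This leaves out the spread of the control. Array number limits the precision. The lmFit and eBayes fit was tested on simulated data with known changes.

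The genes and lists were chosen with earlier results of these data known. Named were the 9 genes, SPINK1, and in each list the called genes and the 2 highest and 2 lowest measurable ones, with the 3 genes most like SRXN1, whose mean lay farthest from 0 among the NRF2 genes; marker genes were named outside this rule, and 1 gene that it covers is not reported here. All 9 names and all 73 measurable pathway genes matched the RefSeq table. Alternatives covered the background, normalization, source of values, filter, probe rule, test, threshold and each array left out.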

Additional observations from a re-analysis of the deposited data

How the results depend on the processing

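The count of NRF2 genes called lower was 0, and became 6 with median centring in place of loess, 1 at an unadjusted p under 0.05, and 0 to 1 when each array was left out in turn. The array in question was that of hairpin 1, without which SRXN1 was called lower at -0.25 and GCLM higher at 0.23 (adjusted p of 0.0182 and 0.0339), so the count called higher was also 0 to 1. Without that array, 1936 of all 17059 genes were called lower and 1240 higher, 18.6% together. Median centring moved the median of all genes to -0.23 and called 10341 of 17059 genes lower. Relative to the median, KEAP1, SRXN1 and PGD lay below with both methods, TXNRD1 with loess only and GCLC with median centring only.

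Of the wider pathway, 12 genes were called lower and 9 higher. These counts were 54 and 2 with median centring, 0 and 0 with the software's log ratios, with the deposited table and with each gene's own variance alone, and 0 and 3 beyond 0.5 on the log2 scale. At an unadjusted p under 0.05 by limma, 17 were lower and 14 higher, while 29.8% of all genes passed in either direction. Over all genes, the software's log ratios and the deposited table each called 3 lower and 0 higher, and the own-variance test called 0, SPINK1 included (adjusted p = 0.137), so these counts of 0 carry little information on the pathway. Leaving out each array gave 4 to 12 lower and 2 to 11 higher, with 4 and 2 without hairpin 3 and 7 and 5 without hairpin 2.

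SRXN1 and PGD were below 0 under all 13 alternatives (SRXN1 from -0.54 to -0.12, PGD from -0.50 to -0.08). Signs turned for KEAP1 (0.0035 with an offset of 16, 0.0401 with the software's ratios, 0.04 with the deposited table, -0.0960 to 0.0554 when each array was left out), NQO1 (-0.0020 to 0.0865 with an array left out), HMOX1 (-0.20 with median centring, -0.0633 to 0.12 with an array left out), GCLM (-0.21 with median centring), GCLC (-0.29 with median centring, -0.0229 to 0.19 with an array left out) and TXNRD1 (-0.14 to 0.0837 with an array left out). The cause was not tested. No further pairing was possible because the ratio of each array already pairs both RNAs and the hairpins form 1 group. Slide could not be used as a block, since all arrays were on 1 slide. Dim probes limit NQO1 and NFE2L2.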
